A study of Mus musculus with 96 samples.

Results

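Mouse embryonic stem cells (ESCs) of the line R7.15 that lacked their own Rybp were given back either wild-type RYBP or a RYBP without 21 of its residues, and their total RNA was sequenced. The labels call the second group RYBP phase disruption and give its genotype as RYBPfl/fl Rosa26::CreERT2 with RYBP.21aa deletion. The first group, WT.RYBP, has the same background with WT RYBP overexpression. Both groups carry 4-OHT as treatment, so the controls share the floxed Rybp alleles, the tamoxifen-activated Cre expressed from Rosa26, and the exposure to 4-OHT. In the protocol, 5 µM 4-OHT for 4 days deletes Rybp, and the cells grow in serum with LIF. Each group had 2 libraries, which together make up 4 of the 96 samples of the series, and all 4 were selected as the columns of 1 count table. The labels do not say whether the 2 libraries of a group came from separate cultures or clones, so p-values measure only the spread between these libraries. Which residues were removed, and which promoter drives the introduced RYBP, are not given in the sources used here. The comparison asks which transcripts differed between cells given RYBP without that stretch and cells given wild-type RYBP.

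RYBP is a subunit of the non-canonical Polycomb repressive complexes 1 (ncPRC1), in which it binds the E3 ligase RING1B (gene Rnf2) or RING1A (Ring1) and stimulates monoubiquitination of histone H2A. YAF2 is its close paralogue and occupies the same position in the complex. The ncPRC1 variants are set apart by their PCGF subunit. The variant with PCGF6, MGA, MAX, L3MBTL2 and E2F6 is known to keep germ cell and meiosis genes silent in ESCs, and a small fraction of ESCs at any time expresses genes of the two-cell embryo, such as the Zscan4 cluster.

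The WT.RYBP libraries had 16185271 and 16354044 counts on genes and the phase disruption libraries 14512857 and 14591096, with 19405 to 19730 genes detected per library. Of all reads in each library, 49.1% to 49.4% were not aligned. Levels are given as CPM, counts scaled to library size by edgeR's TMM method. Chi-square per degree of freedom over 11430 genes was 2.2 between the WT.RYBP libraries and 3.18 between the phase disruption libraries, and 20.2 to 20.7 between groups, so no library was a copy of another. Markers of ESCs were high in all 4 libraries, with Pou5f1 at 296 to 430 CPM and Sox2 at 437 to 464 CPM. Among 18 fibroblast and feeder genes, the summed level was 3681 and 3715 CPM in WT.RYBP and 2716 and 2821 CPM in the phase disruption libraries, 10 were called lower and none was at 0. By chromosome, the median log2 fold change of genes with at least 5 CPM was -0.17 on chromosome 14 (371 genes), 0.11 on chromosome 12 (383 genes) and -0.96 on chromosome Y (3 genes), against -0.06 to 0.03 on the others. The part of these shifts in the results for genes of those chromosomes was not tested.

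In total 14575 genes were tested with edgeR's quasi-likelihood test, and a gene was called at a Benjamini-Hochberg adjusted p under 0.05. Expression was higher in the phase disruption for 2343 genes (16.1% of those tested) and lower for 2471 (17%), 33% in either direction. The counts of the gene lists below can be set beside these shares. The 2 groups did not overlap at 65% of all genes tested. A change of at least 2-fold was found for 793 genes upwards (5.44%) and only 193 downwards (1.32%). A gene that is high in a single group can pass the filter on low counts applied before testing. Both WT.RYBP libraries reached the minimum of that filter for 458 of the 793, and both phase disruption libraries for 133 of the 193. The shares in this paragraph use all 793 and 193. Of the genes up at least 2-fold, 16% were annotated pseudogenes and 26% bore Gm names, against 2.59% and 5.33% of all genes tested, and 73.8% of them had a mean under 5 CPM. Of the genes down at least 2-fold, 65.8% did. The median level was 13.8 CPM for genes called higher, 62.5 CPM for genes called lower and 20.2 CPM over all genes tested, and it was 2.26 and 2.5 CPM for genes up and down at least 2-fold. The median log2 fold change over all genes was 0.005. In bulk RNA, fewer cells of a kind and less RNA per cell cannot be told apart.

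Rybp itself, at chr6:100178560-100237435 of mm9, was measured at 749 and 754 CPM in WT.RYBP and at 662 and 626 CPM in the phase disruption libraries. The phase disruption libraries lay below both WT.RYBP libraries (log2 fold change -0.22, SE 0.04, adjusted p = 6.8e-05). In the separately made knockout table of the same line, Rybp stood at 110 CPM in both Rybp+/+ libraries and at 24.8 and 25.0 CPM in Rybp-/- libraries. Counts per gene sum the endogenous and introduced transcripts, so the levels show that both groups carried abundant Rybp RNA but do not show the 21-residue deletion itself.

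Among 27 genes of RYBP and its ncPRC1 partners, 5 were higher and 12 lower, with a median log2 fold change of -0.05, and none changed 2-fold. Over the alternatives 3 to 7 were higher and 8 to 12 lower, with 3 higher when any 1 library except phase disruption replicate 2 was left out, and 3 with DESeq2 or without a filter. Kdm2b, which recruits the PCGF1 variant to CpG islands, had 128 and 121 CPM in WT.RYBP and 75.0 and 80.6 CPM in the phase disruption. It was the partner that fell furthest (-0.68, SE 0.06, adjusted p = 4.9e-11). Pcgf5, which encodes a subunit of another variant, rose from 14.2 and 14.6 CPM to 23.8 and 23.9 CPM (0.73, SE 0.11, adjusted p = 3.9e-06). Of the catalytic pair, Rnf2 fell by 0.31 on the log2 scale (170 and 158 against 137 and 128 CPM), and Ring1 was called higher by 0.37 (10.3 and 9.98 against 13.4 and 12.8 CPM, adjusted p = 0.041). Yaf2 had 11.6 and 12.7 CPM against 16.5 and 14.2 CPM (0.34, adjusted p = 0.047). Leaving out any 1 of the 4 libraries ended the call of Ring1 (adjusted p = 0.083 to 0.17), and leaving out any except phase disruption replicate 2 ended that of Yaf2 (0.075 to 0.30). Both calls were also lost with DESeq2 (adjusted p = 0.30 and 0.31) and without a filter (0.083 and 0.13). Of the variant that silences germ cell genes, Pcgf6 fell by 0.27, with 95.4 and 94.6 CPM against 74.3 and 83.1 CPM. Its other subunits, named here after their values were seen, went both ways. Mga fell by 0.39, L3mbtl2 by 0.30 and Max by 0.17, and E2f6 rose from 41.7 and 39.8 CPM to 52.4 and 55.5 CPM (0.41, SE 0.08, adjusted p = 8.2e-05). Max was no longer called without phase disruption replicate 1 (adjusted p = 0.11) or WT.RYBP replicate 2 (0.39), with DESeq2 (0.13) or without a filter (0.10), and E2f6 and Max lie on chromosome 12, whose genes had a higher median. Bcor, a partner of PCGF1, rose by 0.48.

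Canonical PRC1, whose CBX subunits bind H3K27me3, had 3 of 12 genes higher and 3 lower, against 16.1% and 17% of all genes tested. Its ring finger gene Bmi1 fell from 27.9 and 25.5 CPM to 17.5 and 14.9 CPM (-0.72, SE 0.11, adjusted p = 3.6e-06), while Phc2 rose by 0.74. PRC2, which deposits H3K27me3, had 4 of 12 genes higher and 3 lower, among them its core subunit Eed, which fell by 0.53 (312 and 307 against 220 and 208 CPM), and its accessory subunit Mtf2, which rose by 0.41. For WDR5 and the H3K4 methyltransferase complexes (COMPASS), 9 of 18 genes were lower and 1 higher (median -0.13). Wdr5, the shared scaffold subunit, had 201 CPM in both WT.RYBP libraries and 162 and 178 CPM in the phase disruption (-0.24, adjusted p = 0.00042), and Dpy30 fell by 0.64.

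The two-cell-like genes moved in one direction. Of 26 genes on the list, 18 were in the table and 17 passed the filter on low counts. These 17 rose, each by at least 2-fold. A gene that is high in one group alone can pass that filter, and 3 members, Dux and Tdpoz3 among them, reached it (10 counts at the median library size) only in the phase disruption libraries. The 14 that reached it in both WT.RYBP libraries rose with a median log2 fold change of 3.21 (3.23 over the 17) and a range from 1.01 to 3.53. The summed level of the 14 was 128 and 120 CPM in WT.RYBP and 954 and 922 CPM in the phase disruption libraries. Zscan4c, which encodes a zinc-finger protein that marks the two-cell-like state (chr7:11591071-11595896 of mm9), had 18.2 and 16.0 CPM in WT.RYBP. In the phase disruption libraries it had 176 and 167 CPM. The groups were far apart, at a fold of 10.0 (log2 fold change 3.32, SE 0.07, adjusted p = 1.8e-27). Zscan4b had the steepest rise of the 14, from 4.15 and 4.62 CPM to 51.5 and 50.2 CPM (3.53, SE 0.12). Tdpoz3, a TRAF- and BTB-domain gene of early embryos, rose from 7 and 3 counts, or 0.441 and 0.187 CPM, to 8.89 and 9.28 CPM (4.82, SE 0.34, adjusted p = 1.6e-13). Zfp352 rose from 0.692 and 1.43 CPM to 11.0 and 12.6 CPM (3.46, SE 0.25). Dux, which encodes the transcription factor that can switch on this state and was named here after its values were seen, stayed low in all libraries, at 0.252 and 0.437 CPM against 2.31 and 4.03 CPM (3.17, SE 0.47, adjusted p = 2e-06). Dppa3 (Stella), a maternal-effect gene that ESCs also express, rose least, from 28.2 and 30.1 CPM to 57.7 and 60.0 CPM (1.01, SE 0.08). The Zscan4, Dub, Tdpoz and Gm genes lie in families of near-identical copies among which the counting could split reads, so the value of a single copy is uncertain.

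**Figure D1:**
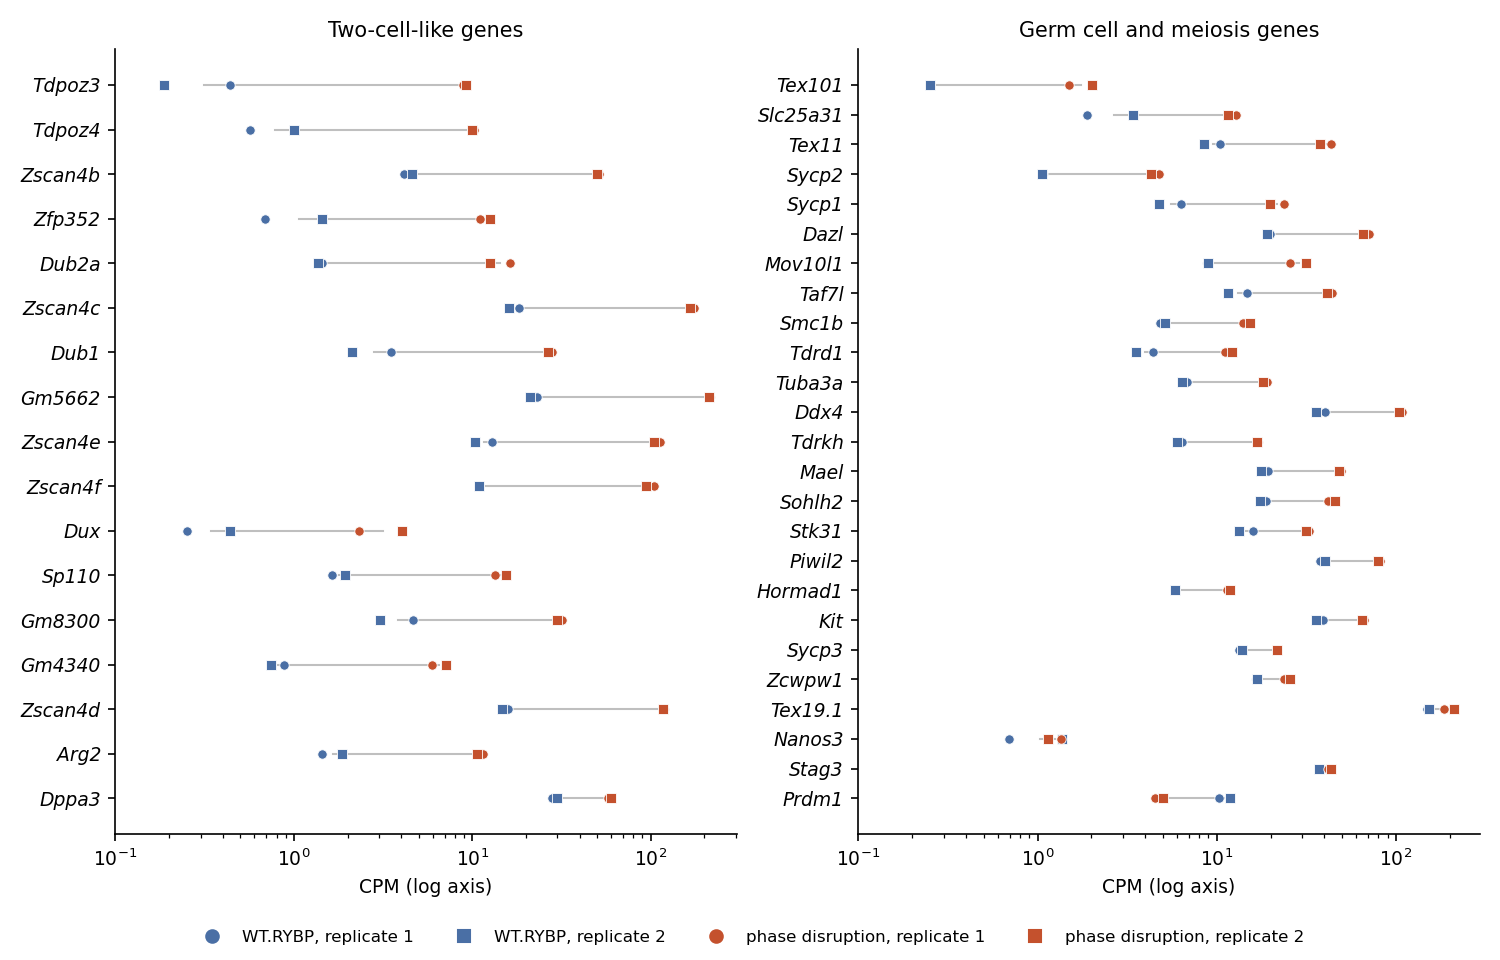
Level of each two-cell-like gene (left) and each germ cell and meiosis gene (right) in the 4 libraries, in CPM on a log axis; circles and squares are replicates 1 and 2, and grey lines join the group means. All 17 two-cell-like genes lie higher in the phase disruption libraries, and Prdm1 is the one germ cell gene that lies lower.

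Germ cell and meiosis genes rose almost as regularly but by less. Of 30 genes on the list, 28 were in the table and 25 were tested. Of these, 22 rose, 1 fell and 2 were not called. Among the 24 that reached the filter in both WT.RYBP libraries, 21 rose, 16 of them at least 2-fold, and 1 fell, with a median log2 fold change of 1.43. The sum of these 24 went from 492 and 480 CPM to 958 and 968 CPM. Tex11, a meiotic gene of the X chromosome, rose from 10.5 and 8.48 CPM to 43.6 and 37.6 CPM (2.10, SE 0.12, adjusted p = 3.5e-16). Slc25a31 encodes an ADP/ATP carrier of the germ line and lies at chr3:40512777-40529515 of mm9. It had 1.89 and 3.43 CPM in WT.RYBP and 12.9 and 11.6 CPM in the phase disruption (2.20, SE 0.21, adjusted p = 3.1e-10). Sycp2, a component of the synaptonemal complex, rose from 1.07 and 1.06 CPM to 4.75 and 4.30 CPM (2.08, SE 0.32). Tex101, the member that reached the filter only in the phase disruption libraries, had under 2.1 CPM in every library, with the WT.RYBP libraries both at 0.25 CPM. No library of one group reached into the other for these 4 genes, which holds for 65% of all genes tested. Stag3, a meiotic cohesin subunit, was not called (38.9 and 37.3 against 42.0 and 43.4 CPM, adjusted p = 0.12). Several further genes were named after their values were seen. In the opposite direction, Prdm1, which encodes the transcriptional repressor BLIMP1 of primordial germ cell fate, fell from 10.3 and 11.8 CPM to 4.55 and 5.04 CPM (-1.20, SE 0.18, adjusted p = 1.6e-06). Ddx4, an RNA helicase of germ granules, had 40.2 and 35.8 CPM in WT.RYBP and 109 and 104 CPM in the phase disruption (1.48, SE 0.07, adjusted p = 5.3e-18). Dazl, an RNA-binding protein of germ cells, went from 19.82 and 19.09 CPM to 70.5 and 65.8 CPM (1.81, SE 0.08). Stra8, which is needed for entry into meiosis and was not on the list, had 9.94 and 11.1 CPM in WT.RYBP and 105 and 106 CPM in the phase disruption libraries (3.33, SE 0.09, adjusted p = 2.2e-25).

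The promoters of this list were searched because the MGA and MAX subunits of the PCGF6 variant bind E-boxes and its E2F6 subunit binds E2F sites. RefSeq promoters of GRCm38.p6, each from 250 bases before to 50 bases after the start, could be matched by symbol for 23 of the 25 genes. The E-box CACGTG, which reads the same on both strands, was present in 11 of these 23 promoters (47.8%), against 10.4% of the 9821 promoters of tested genes and 2349 of all 32851 promoters in the table. The letters TTCCCGCC on either strand were found in 4 (17.4%), against 4.26% of tested genes. The STAT motif TTCNNNGAA was found in none of the 23, against 6.63% of tested genes, which says only that these letters are absent from those windows. No two-cell-like promoter of the 8 matched held any of the 3 motifs. In other lists the E-box was found in 4 of 16 promoters (p53, 25.0%), 3 of 13 (Hox, 23.1%), 2 of 18 (imprinted, 11.1%) and 1 of 11 (formative, 9.09%). Across the whole comparison the E-box was found in promoters of 10.1% of genes that rose, 13.9% of those that fell and 9.53% of those not called. Within the list, 10 of the 11 genes with an E-box rose and Stag3 was not called, and 10 of the 12 without one rose, 1 fell and 1 was not called. A motif match is a description and not evidence of binding. The 11 promoters held 13 E-boxes, of which 1 from each of 10 genes is shown in 30 bases of sequence, 5′ to 3′ on the strand of the gene, with the motif in capitals.
Ddx4, chr13:112652322-112652351, minus strand: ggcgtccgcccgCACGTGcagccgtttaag
Slc25a31, chr3:40708766-40708795, plus strand: cgcaactggaaaCACGTGttatggtcacat
Mael, chr1:166238950-166238979, minus strand: taccaggcctacCACGTGacaatccccgcc
Stk31, chr6:49395472-49395501, plus strand: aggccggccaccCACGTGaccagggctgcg
Sycp1, chr3:102936177-102936206, minus strand: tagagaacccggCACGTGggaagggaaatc
Taf7l, chrX:134476522-134476551, minus strand: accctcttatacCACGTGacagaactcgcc
Tdrd1, chr19:56826186-56826215, plus strand: tggggctgcgcgCACGTGggagtaaactgc
Hormad1, chr3:95559645-95559674, plus strand: atgcgcactgcgCACGTGctgaccggagcg
Sycp3, chr10:88459511-88459540, plus strand: gccgttggctccCACGTGagaacgggcatg
Stag3, chr5:138280327-138280356, plus strand: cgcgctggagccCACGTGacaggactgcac
The distance from motif to start ran from 11 bases in Tdrd1 to 246 bases in Mov10l1.

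The 250 bases before the start of Ddx4, chr13:112652311-112652560 on the minus strand of GRCm38.p6, are shown whole because they hold both an E-box (CACGTG) and the E2F letters in reverse (GGCGGGAA), both in capitals.
Ddx4: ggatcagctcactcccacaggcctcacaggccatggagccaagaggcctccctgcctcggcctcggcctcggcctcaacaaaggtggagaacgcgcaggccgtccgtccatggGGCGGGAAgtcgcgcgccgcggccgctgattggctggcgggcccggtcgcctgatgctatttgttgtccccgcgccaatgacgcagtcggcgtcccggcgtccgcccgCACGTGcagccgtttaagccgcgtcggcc

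Imprinted genes, which are expressed from 1 parental allele, moved both ways. Of 23 tested, 12 were higher and 8 lower, with a median log2 fold change of 0.32. The count of higher genes was smaller under some alternatives and larger under others. H19, a non-coding RNA at chr7:149761434-149764048 of mm9, had 12.8 and 13.4 CPM in WT.RYBP. In the phase disruption libraries it had 259 and 254 CPM. This was a 19.6-fold rise (4.29, SE 0.07, adjusted p = 1.9e-31), the largest among called genes with a mean of at least 5 CPM. Igf2, the growth factor gene that shares its control region with H19 and lies nearby at chr7:149836673-149852721, rose as well, from 16.0 and 12.8 CPM to 96.3 and 96.9 CPM (2.75, SE 0.09, adjusted p = 6e-23). Mest rose from 24.1 and 23.6 CPM to 63.9 and 66.4 CPM (1.45, SE 0.08), and Cdkn1c, which encodes the cell cycle inhibitor p57, from 27.9 and 25.2 CPM to 37.3 and 41.8 CPM (0.57, SE 0.09). Downwards, Usp29 fell by 1.60 at levels under 2.3 CPM (adjusted p = 0.004, 0.063 without WT.RYBP replicate 2 and 0.073 with DESeq2). The counts do not separate the parental alleles.

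Hox genes were low throughout, and 22 of the 39 in the table were tested. Of these, 9 were called higher and 1 lower, but 10 of the 22 did not reach the filter in both WT.RYBP libraries, and 9 of those 10 reached it in both phase disruption libraries. Among the 12 that did, 5 were higher and 1 lower, with a median log2 fold change of 0.65 (1.05 over the 22). Their summed level was 31.0 and 38.3 CPM in WT.RYBP against 62.1 and 59.7 CPM. Over the 22, fewer were called higher under some alternatives. Hoxb1, which reached the filter only in the phase disruption libraries, had 0.503 and 0.561 CPM in WT.RYBP and 2.65 and 1.41 CPM in the phase disruption (1.91, SE 0.47, adjusted p = 0.0017), a call that was lost without phase disruption replicate 1 (1.39, adjusted p = 0.11). Hoxc4 rose from 1.70 and 1.06 CPM to 4.14 and 3.90 CPM (1.54, SE 0.32). Hoxd13 was not called (1.64 and 2.12 against 2.78 and 2.55 CPM).

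**Figure D2:**
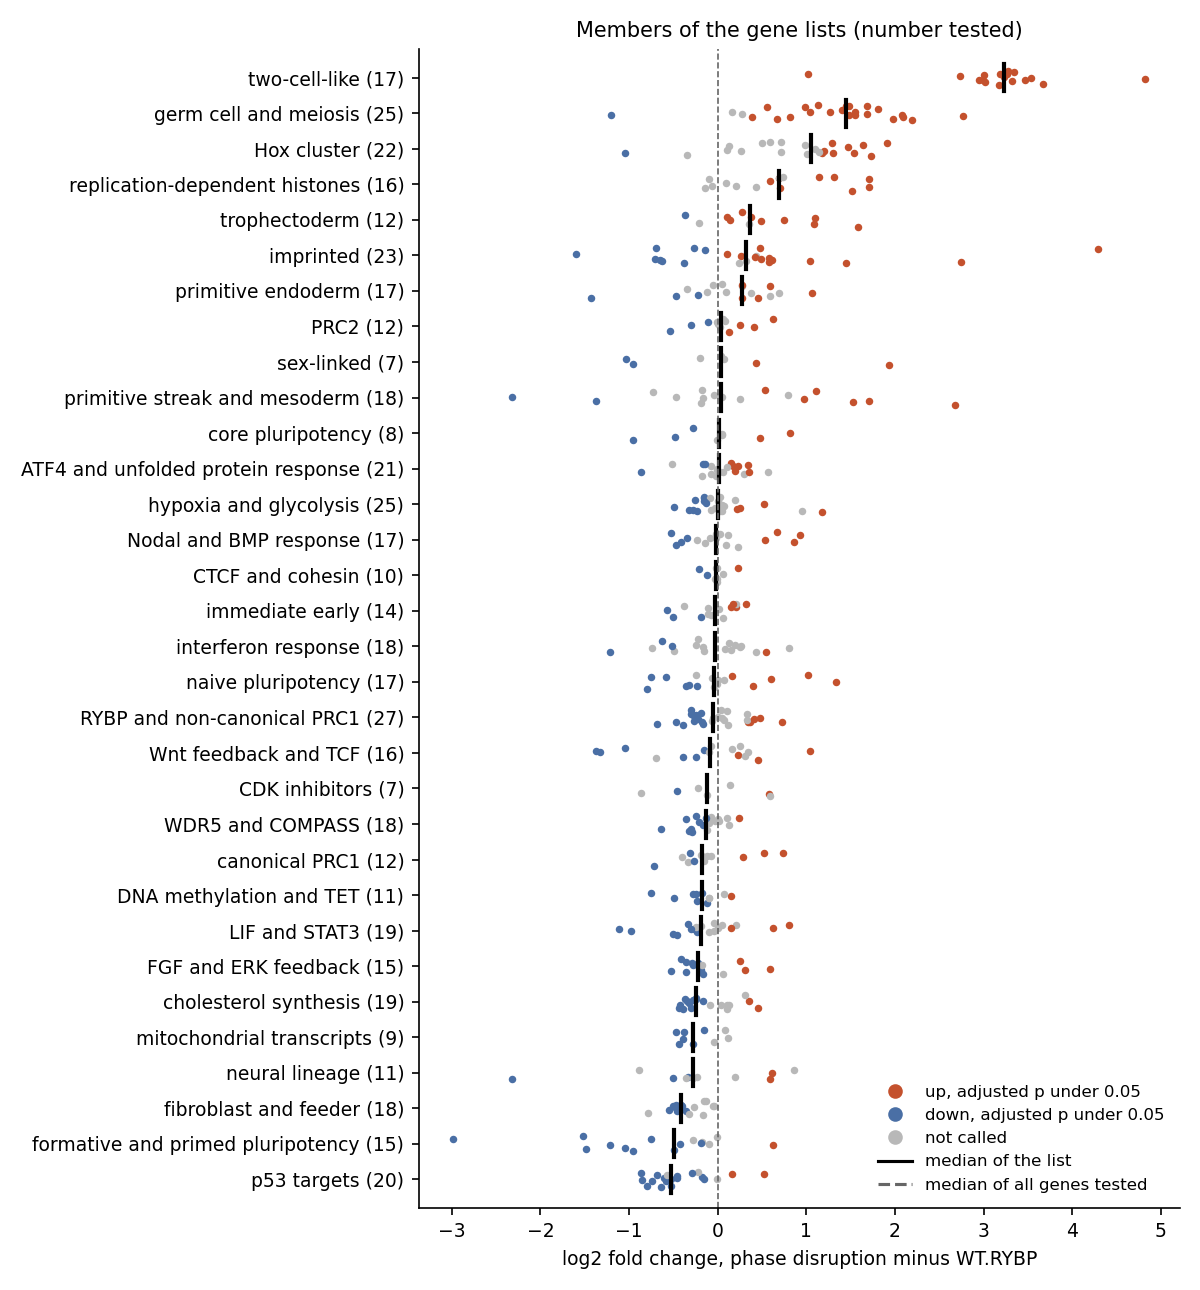
Log2 fold change (phase disruption minus WT.RYBP) of each tested member of the 32 gene lists, ordered by the list median (black bar); the dashed line is the median of all genes tested. The two-cell-like list has the highest median (3.23) and p53 and its targets the lowest (-0.52).

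Genes of formative and primed pluripotency, the state that ESCs enter as they leave naive pluripotency, were lower. Of 15 tested, 10 fell and 1 rose, with a median log2 fold change of -0.49. Among the 14 that reached the filter in both phase disruption libraries, 9 fell, 4 of them at least 2-fold, with a median of -0.46. Otx2, a transcription factor that drives this transition (chr14:49277354-49287319 of mm9), had 25.8 and 25.4 CPM in WT.RYBP and 9.51 and 8.34 CPM in the phase disruption. The groups did not overlap (-1.52, SE 0.12, adjusted p = 6.6e-12). Fgf5, the standard marker of the post-implantation epiblast and the one member that reached the filter only in WT.RYBP, fell from 5.66 and 5.12 CPM to 0.543 and 0.807 CPM (-2.98, SE 0.34, adjusted p = 1.2e-08). Zic2 fell from 47.6 and 48.7 CPM to 17.5 and 16.9 CPM (-1.48, SE 0.09), and Foxd3 from 8.49 and 8.05 CPM to 3.53 and 3.56 CPM (-1.22, SE 0.20). The de novo methyltransferase gene Dnmt3b fell from 454 and 460 CPM to 261 and 281 CPM (-0.76, SE 0.05), and its cofactor Dnmt3l by 0.49. Dnmt3a was not called (205 and 202 against 188 and 193 CPM, adjusted p = 0.12). Otx2 and Zic2 lie on chromosome 14, whose genes had a lower median. Without genes of chromosomes 12, 14 and Y, 7 of the 10 remaining members were lower.

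Core pluripotency genes split. Nanog rose from 399 and 408 CPM to 570 and 557 CPM (0.48, SE 0.04, adjusted p = 4.6e-11), and Dppa2, an upstream activator of two-cell genes, from 178 and 176 CPM to 321 and 301 CPM (0.81, SE 0.05). Pou5f1, which encodes OCT4, fell from 419 and 430 CPM to 296 and 312 CPM (-0.48, SE 0.05, adjusted p = 1.8e-10). Lin28a, an RNA-binding protein that blocks let-7 maturation, fell further, from 422 and 423 CPM to 215 and 220 CPM (-0.96, SE 0.04, adjusted p = 4.1e-18). Sox2 was not called (437 and 453 against 464 and 456 CPM, adjusted p = 0.41). In the naive list, 5 of 17 were higher (3 without WT.RYBP replicate 1) and 6 lower. Fbxo15, an F-box gene bound by OCT4 and SOX2, rose from 172 and 170 CPM to 430 CPM in both libraries (1.33, SE 0.05, adjusted p = 4.5e-22). Klf5 fell from 184 and 186 CPM to 114 and 105 CPM (-0.76, SE 0.05), and Esrrb was not called (474 and 493 against 504 and 510 CPM).

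**Figure D3:**
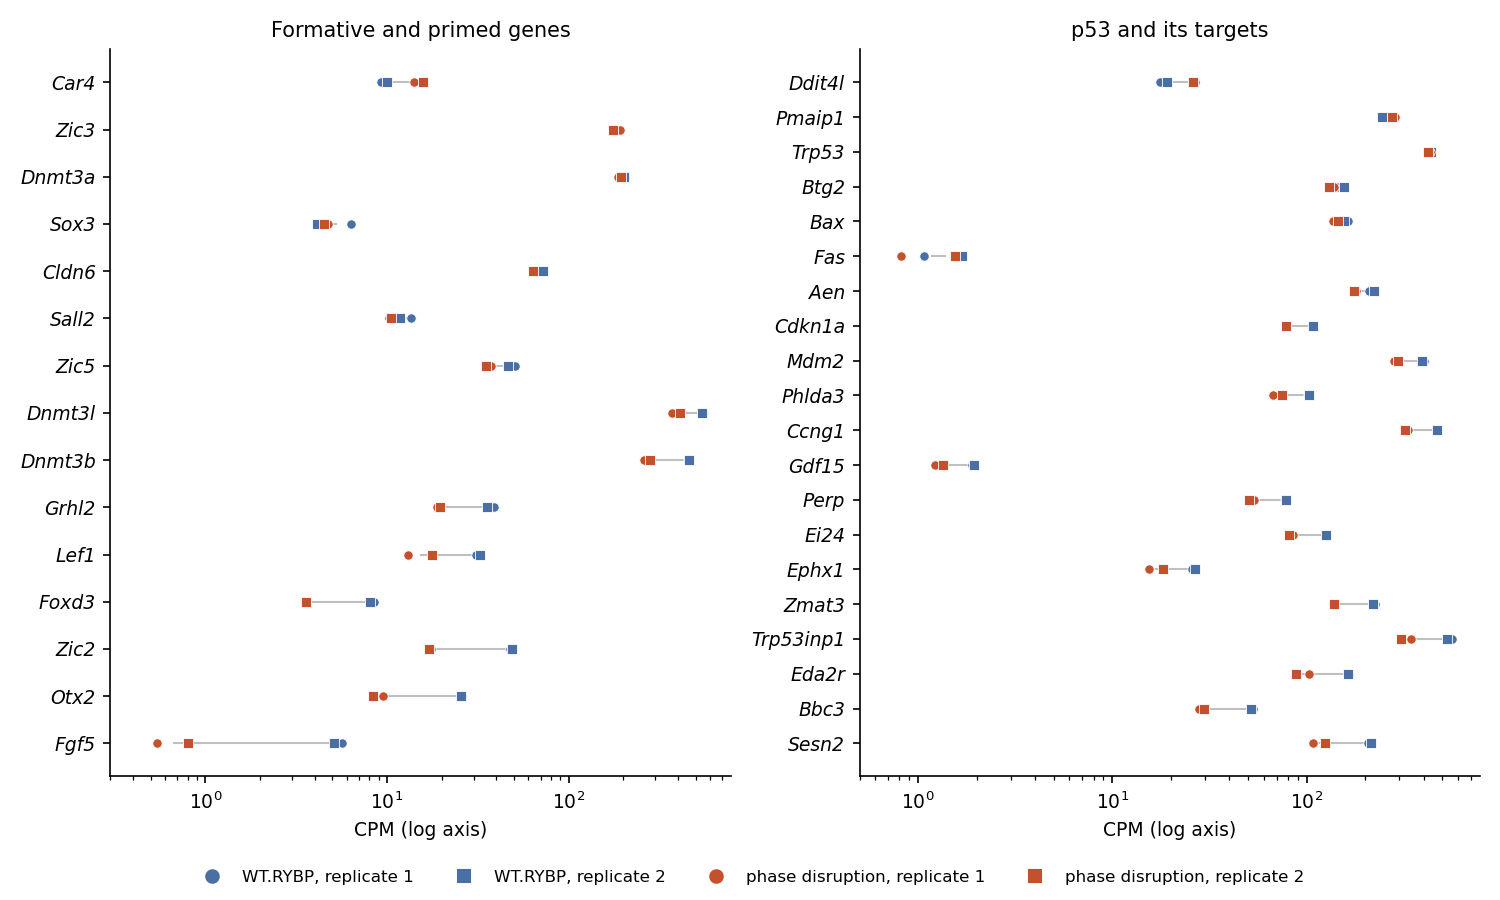
Level of each formative and primed pluripotency gene (left) and of p53 and its targets (right) in the 4 libraries, in CPM on a log axis, with symbols as in the plot of genes that rose. Fgf5, Otx2 and Zic2 show the widest gaps on the left, and 15 of the 20 genes on the right were called lower in the phase disruption.

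The p53 list, p53 with its targets, was lower at modest size. Of 20 genes tested, 15 fell and 2 rose, with a median log2 fold change of -0.52. No member changed 2-fold. The fibroblast and feeder genes given above were lower too (10 of 18, median -0.41), and their part in the fall of the p53 list was not tested. Sesn2, a stress-responsive regulator of mTORC1, had 208 and 215 CPM in WT.RYBP and 108 and 124 CPM in the phase disruption (-0.87, SE 0.06, adjusted p = 2.3e-14). Bbc3, which encodes the pro-apoptotic protein PUMA, fell from 53.2 and 51.7 CPM to 28.0 and 29.8 CPM (-0.86, SE 0.08). Eda2r fell from 166 and 163 CPM to 102 and 87.7 CPM (-0.79, SE 0.06), and Trp53inp1 from 562 and 530 CPM to 347 and 305 CPM (-0.75, SE 0.05). Cdkn1a, the gene of the cell cycle inhibitor p21, had 108 and 107 CPM in WT.RYBP and 78.2 and 78.5 CPM in the phase disruption (-0.46, SE 0.06, adjusted p = 1.7e-07).

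Signalling targets were examined because the series studies STAT3 with RYBP. Of 19 genes of the LIF and STAT3 pathway, 3 rose and 8 fell (median -0.19), against 16.1% and 17% of all genes tested. Stat3 itself fell from 146 and 144 CPM to 121 and 120 CPM (-0.27, SE 0.05, adjusted p = 0.00016). Its targets went both ways. Pim1, a kinase gene induced by STAT3, rose from 74.3 and 84.2 CPM to 121 and 124 CPM (0.63, SE 0.06). Myc fell from 29.3 and 30.3 CPM to 12.3 and 15.3 CPM (-1.11, SE 0.11, adjusted p = 1.2e-09), and Mras fell by 0.98. In the list of FGF and ERK feedback genes, 10 of 15 fell and 3 rose (median -0.22), with Spry1, a feedback inhibitor, at 23.2 and 22.1 against 16.6 and 14.8 CPM (-0.53) and Etv5 down by 0.42. Leaving out WT.RYBP replicate 2 reduced the 10 to 6. Among Wnt genes, T (Brachyury) fell from 15.3 and 20.0 CPM to 6.72 and 6.86 CPM (-1.38, SE 0.15), and Nkd1 rose by 1.05. Lefty1, a Nodal antagonist, rose from 36.2 and 37.6 CPM to 65.8 and 75.1 CPM (0.93, SE 0.08, adjusted p = 1.2e-11), while Lefty2 was not called.

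Lineage lists were examined beside all genes tested, of which 16.1% were higher and 17% lower. Differences between these lists were not tested. Trophectoderm genes had 9 of 12 called higher and 1 lower (median 0.37), a count of higher genes that fell to 4 without WT.RYBP replicate 2 and 5 without phase disruption replicate 1, and to 4 with DESeq2 or without a filter. Krt7, an epithelial keratin, rose from 4.15 and 5.30 CPM to 13.7 and 14.6 CPM (1.58, SE 0.17, adjusted p = 3e-09). Of 18 primitive streak and mesoderm genes, 6 rose and 2 fell, and 1 in each direction reached the filter only in the group where it was high. Over the alternatives 4 to 6 rose and 1 or 2 fell, with 1 falling when any 1 library except WT.RYBP replicate 2 was left out. Hand1, a transcription factor of trophoblast giant cells and heart, rose from 3.27 and 2.93 CPM to 19.3 and 20.6 CPM (2.68, SE 0.17, adjusted p = 5.8e-15). Primitive endoderm genes had 5 of 17 called higher and 3 lower, or 4 and 3 of the 15 that reached the filter in both WT.RYBP libraries. Over the 17, the count of higher genes fell to 2 or 3 when any 1 of the 4 libraries was left out, to 2 without a filter and to 1 with DESeq2. Fst, which encodes the activin antagonist follistatin, fell from 10.4 and 10.5 CPM to 3.94 and 3.83 CPM (-1.43, SE 0.18). Of 11 neural genes, 2 were called higher and 3 lower, and none was higher when any 1 library except phase disruption replicate 2 was left out, with DESeq2 or without a filter. The share of neural genes called higher was near the 16.1% of all genes tested. Neurod1 fell from 9.50 and 9.73 CPM to 2.65 and 1.21 CPM (-2.32, SE 0.25, adjusted p = 3e-09).

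Lists of general cell state were examined too. Replication-dependent histone genes had 8 of 16 called higher and none lower. Of the 10 that reached the filter in both WT.RYBP libraries, 5 were higher (median 0.51), and over the 16 tested the count fell to 3 without phase disruption replicate 1, 5 without WT.RYBP replicate 2 and 3 with DESeq2. Cholesterol synthesis genes fell at 11 of 19 members and rose at 2 (median -0.24), with Sqle, which encodes squalene epoxidase, at 130 and 126 against 99.3 and 96.0 CPM (-0.39). Transcripts of the mitochondrial genome fell at 6 of 9 and rose at none (median -0.28), among them mt-Nd5 at 1150 and 1183 against 905 and 822 CPM (-0.43). For these the second phase disruption library was the lower one, and without it 2 members were called higher. Hypoxia and glycolysis genes had 4 of 25 higher and 9 lower, a count of lower genes that fell to 5 without WT.RYBP replicate 2 and 6 without WT.RYBP replicate 1 or phase disruption replicate 1. Of all genes tested, 16.1% were higher and 17% lower, so the share of higher genes in this list was no larger. Pdk1, a kinase gene that restrains pyruvate oxidation, fell by 0.49. P4ha2, a prolyl hydroxylase of collagen, rose from 27.6 and 27.7 CPM to 61.7 and 63.3 CPM (1.18, SE 0.08). Interferon response genes had 1 of 18 higher and 3 lower, no larger shares than the 16.1% and 17% of all genes tested. One of them, Ddx58, the gene of the RNA sensor RIG-I, fell from 56.8 and 57.6 CPM to 25.1 and 24.3 CPM (-1.21, SE 0.08, adjusted p = 8.1e-14).

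At a mean of 5 CPM or more, the steepest rise after that of H19 was that of Lgals4, which encodes the gut lectin galectin-4 and had 1.82 and 1.37 CPM in WT.RYBP against 24.0 and 28.9 CPM (4.04, SE 0.18, adjusted p = 1.4e-18). Of the 12 largest rises, 7 belonged to genes with Gm names, such as Gm13109, at 5.73 and 5.99 against 80.0 and 83.2 CPM (3.80, SE 0.10). Among the 12 largest falls, Myb, a transcription factor gene of haematopoietic progenitors, fell from 8.75 and 8.30 CPM to 2.04 and 1.55 CPM (-2.24, SE 0.24, adjusted p = 2.9e-09), and Trp73, the p53 homologue, from 13.0 and 14.2 CPM to 4.55 and 4.71 CPM (-1.55, SE 0.17). The largest fall at such levels was that of Nlrc4, an inflammasome receptor gene, from 7.80 and 11.5 CPM to 1.43 and 1.34 CPM (-2.79, SE 0.26, adjusted p = 1.5e-10).

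The knockout of the same line was set beside the deletion. In that table Rybp-/- ESCs, made with 4-OHT, were compared with Rybp+/+ ESCs labelled as control, in 2 libraries each, so this contrast also holds the exposure to 4-OHT, which the deletion's contrast does not. No library is shared. Of 16955 genes tested there, 3873 (22.8%) rose and 3847 (22.7%) fell. Of the 2471 genes lower in the deletion, 44.1% of those tested in both fits were also lower in the knockout and 19% were higher, against 25.8% and 25% of all genes in both. Of the genes higher in the deletion, 46.8% were also higher in the knockout and 13.3% lower. Seen from the knockout, 29.3% of its higher genes were higher in the deletion and 29.2% of its lower genes were lower. Of all genes tested in the deletion, 16.1% were higher and 17% lower. The knockout libraries were deeper, with 75496499 to 81049618 counts on genes, and the part of depth in these shares was not tested. The difference between both log2 fold changes was tested as an interaction over the 8 libraries, and 2209 of 17269 genes (12.8%) were higher in the deletion and 2713 (15.7%) lower.

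Of the 17 two-cell-like genes, 16 were also higher in the knockout, from a far lower base. Zscan4c had 0.102 and 0.0373 CPM in Rybp+/+ and 20.6 and 20.7 CPM in Rybp-/-, whereas WT.RYBP cells already had 18.2 and 16.0 CPM. These levels come from separately made tables and stand side by side only. With Rybp+/+ libraries so near 0, the size of such folds in the knockout is not compared with that in the deletion. Dppa3, which was abundant in each table, was not called in the knockout (61.4 and 64.3 against 66.0 and 66.3 CPM), and its interaction was 0.93 (adjusted p = 5.1e-13). R1 ESCs labelled TF-AA mutation were compared with WT ESC, in separate libraries, 2 a group. There 2085 (14.4%) of 14456 genes were higher and 2327 (16.1%) lower. Of 16 tested two-cell-like genes, 15 were higher and 1 lower. Of 24 germ cell genes 17 were higher and 2 lower, of 14 formative genes 1 and 5, and of 19 p53 list genes 4 and 2. H19 changed by -2.40 there (SE 0.70, adjusted p = 0.011), the opposite direction to the deletion.

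Of the 25 germ cell genes, 18 rose and 4 fell in the knockout, and the interaction called 7 members higher and 7 lower in the deletion. Slc25a31, Tex11 and Sycp2 were not called by it (adjusted p = 0.11, 0.25 and 0.61), which does not show that their changes were equal. Formative genes fell at 13 of 15 in the knockout. Otx2 fell by 1.79 in the knockout, and its difference of 0.26 from the deletion was not called (adjusted p = 0.18). Nanog changed by 0.48 in each, with an interaction of -0.01 (adjusted p = 0.91).

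Other groups differed between the contrasts. H19 rose by 1.04 in the knockout (46.7 and 50 against 97.8 and 100.9 CPM), and the deletion exceeded this by 3.24 (SE 0.09, adjusted p = 1.9e-39 for the interaction). Igf2 exceeded it by 1.99 and Hand1 by 2.07. The p53 list rose at 11 and fell at 4 of 20 members in the knockout, and 17 members were lower in the deletion by the interaction. Cdkn1a illustrates this, with 45.7 and 46.3 against 64.2 and 63.7 CPM in the knockout (0.47) and an interaction of -0.95 (adjusted p = 2.8e-16). Pou5f1 was not called in the knockout (0.03), and its interaction was -0.53 (adjusted p = 1.3e-12). Myc differed by -1.40 and Mras by -2.22. The fibroblast and feeder genes also reversed, rising at 17 of 18 members in the knockout and being lower by the interaction at 17. Their part in the differences between the contrasts was not tested.

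**Figure D4:**
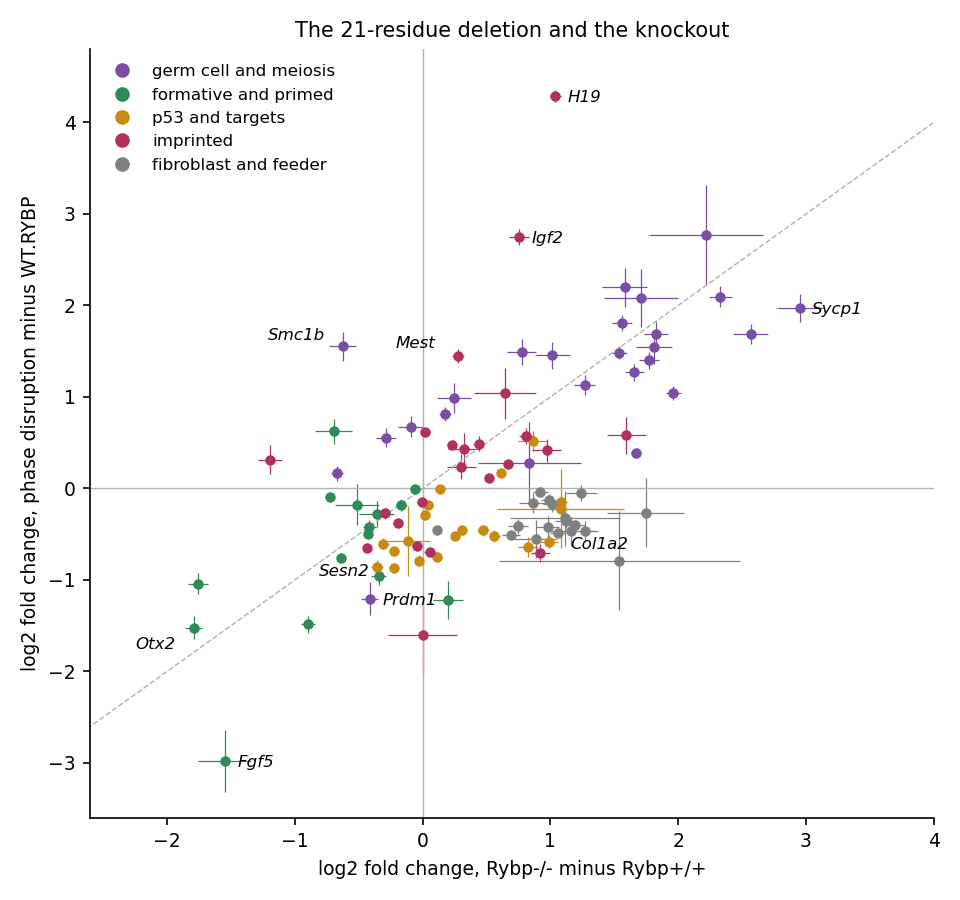
Log2 fold change of the 21-residue deletion (vertical) against that of the knockout (horizontal) for tested members of 5 lists; bars are standard errors and the dashed line marks equal change. H19, Igf2 and Mest lie above the line, and the p53 and fibroblast genes lie mostly below 0 on the vertical axis but above 0 on the horizontal one.

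Peak lists of other cells of the series were used to describe the promoters of the genes that changed. H3K4me3, H3K27ac, WDR5 and STAT3 peaks came from Rybp+/+ ESCs and RING1B peaks from ESCs with an empty shRNA vector. The STAT3 and RING1B lists rest on 1 library each, and the others on merged replicates. ChIP-seq of the WT.RYBP and phase disruption cells is part of the series but was not used here. A gene was counted when a peak lay within 1 kb of an annotated start. Over 14559 tested genes, 90.3% had H3K4me3, 74.9% H3K27ac, 67.2% WDR5, 59.5% RING1B and 10.0% STAT3. Of genes that fell, 85.3% had H3K27ac and 73.8% WDR5. For genes that rose the shares were 62.8% and 59.9%. The sets changed at least 2-fold include genes that reached the filter on low counts only in the group where they were high. At a change of at least 2-fold H3K27ac lay at 20.9% of genes up and 40.6% of genes down, and WDR5 at 25.9% and 26.0%. With only WDR5 peaks at or above the median fold enrichment, the latter were 10.0% and 8.85%, against 40.0% of all genes. RING1B lay at 62.6% of genes that rose and 63.0% of those that fell, and at 39.5% and 27.9% when only peaks at or above the median fold enrichment were used. STAT3 stood at 10.2% and 12.3%. The groups differ in level, as given above, and its part in these shares was not tested.

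The lists that rose differed in this respect. Of the 17 two-cell-like genes, 2 had H3K4me3, 2 RING1B and none WDR5, although the families of near-identical copies in which most of them lie also limit where reads can be placed. Of the 25 germ cell genes, 24 (96.0%) had RING1B, 23 H3K4me3, 14 WDR5 and 9 H3K27ac. All 22 Hox genes had RING1B and 2 had H3K27ac. RING1B lay at 14 of 15 formative genes and at 12 of 20 (60.0%) genes of the p53 list, a share near the 59.5% of all genes tested. With only peaks at or above the median fold enrichment, it lay at 13 and 3 (15.0%), against 30.1% of all genes.

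**Figure D5:**
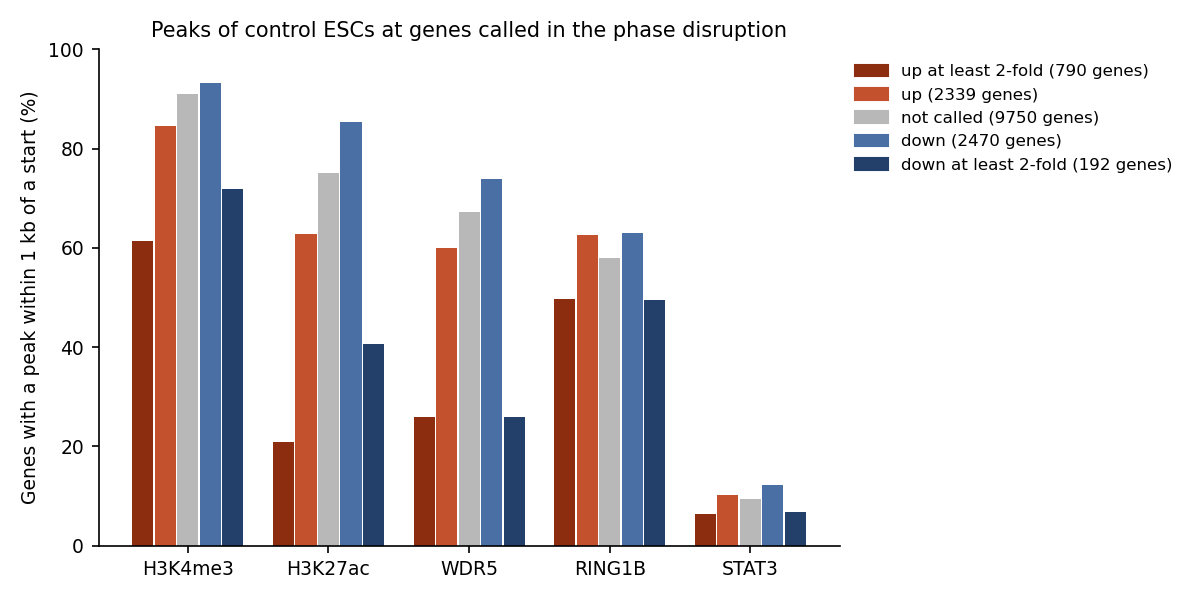
Percent of tested genes with a peak of each mark within 1 kb of a start, by their call in the phase disruption; bars start at 0. H3K27ac stands at 85.3% of genes called lower and 62.8% of those called higher, and at 40.6% and 20.9% of those changed at least 2-fold, while RING1B stays between 49.5% and 63.0%.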

How the data were processed

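RNA of the 4 libraries was used as deposited, as raw counts per gene for 37620 genes. Per the labels, the authors trimmed the reads with Trim Galore, aligned them with STAR to mm9 and counted them with HTSeq. Whether counting used strand is not given in the sources used here. Rows that name no gene held 56.4% to 57.1% of each library, mostly unaligned reads, and were left out. Counts were filtered with filterByExpr, normalized by TMM and tested with edgeR 4.0.16 (quasi-likelihood F-test, 2-sided, Benjamini-Hochberg adjustment over all genes tested, threshold 0.05), without covariates. The knockout and TF-AA tables were fitted in the same way, each against its own controls. On simulated data for this comparison, 95.5% of 200 changed genes were recovered among 14488. The changed genes were drawn only from those above a minimum level, with set folds and the same dispersion for every gene. The share recovered therefore does not describe genes of low level or smaller change. Gene positions came from the GENCODE vM1 annotation of NCBIM37 (mm9), which named 37205 of the genes.

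The members and gene lists were chosen with earlier results of these data known. Genes were named by rule. The rule takes the 12 largest changes each way among called, non-overlapping genes with at least 5 CPM, up to 4 called and 2 uncalled members of each list, and a fixed set of RYBP, STAT3, WDR5 and pluripotency genes. The deposited peak lists (narrow and broad peaks with a signal of fold enrichment and a -log10 q-value, called by the authors) supplied peak positions, and the signal was used only to take the stronger peaks in an alternative. Sequences were RefSeq promoters of GRCm38.p6. Columns of the authors' own comparisons were not used. Alternatives were RLE size factors, DESeq2 1.42.0, edgeR's exact test, other filters, a replicate block, and leaving out each library. At 14512857 to 16354044 counts per library, 1 CPM rests on few reads, and errors cover the spread between these libraries only.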

Additional observations from a re-analysis of the deposited data

How the results depend on the processing

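Of the 93 genes named above, 87 were called, and over 10 alternatives (870 values) 852 kept their direction and their side of the threshold, 18 were no longer called and none reversed. The number of genes higher, 2343, was 1128 with DESeq2, 1502 without a filter on low counts and 793 with an added 2-fold threshold, and between 1614 and 1885 with any 1 library left out. The number lower, 2471, was 1531 with DESeq2 and 193 with the added 2-fold threshold, and between 1763 and 2178 with any 1 library left out. The cause of these shifts was not tested, except that an added threshold can only remove genes. Leaving out genes of chromosomes 12, 14 and Y, chosen after seeing the data, left 2149 and 2266.

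The replicate numbers were shared by the labels, but the deviations of same-numbered libraries from their group means correlated at 0.04 over 10617 genes, with only 2 pairs, so the numbers were not taken as pairing. With the replicate block, 2495 genes were higher and 2677 lower. In the 10 alternatives above, 17 two-cell-like genes were higher and 22 germ cell genes higher with 1 lower, while 13 to 15 genes of the p53 list and 9 or 10 formative genes were lower. Among the genes that were higher, Dux, Tdpoz3, Tdpoz4 and Tex101 reached the filter only in the phase disruption libraries. The interaction called 2152 to 2212 genes higher and 2507 to 2782 lower with RLE size factors or without a filter. Promoter shares moved with the peaks used. With peaks at or above the median fold enrichment, H3K27ac lay at 56.3% of genes that rose and 81.1% of those that fell, and with a 2.5 kb window at 64.5% and 86.3%.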
